A study of Mus musculus with 4 samples.

Results

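The 10 genes described here encode the catalytic subunits of protein phosphatases 1 and 2A and both subunits of calcineurin, the phosphatase that calcium switches on. They were chosen by symbol and all 10 are among the 25965 genes of the deposited table. The germ cell members are 3, Ppp1cc, Ppp3cc and Ppp3r2, and the other 7, Ppp1ca, Ppp1cb, Ppp2ca, Ppp2cb, Ppp3ca, Ppp3cb and Ppp3r1, are counted as somatic paralogues. Messenger RNA was measured by Smart-seq2, a full-length method that amplifies cDNA from few cells, in round spermatids sorted by flow cytometry from testes of ICR mice. Round spermatids are the haploid germ cells that follow meiosis. The compared groups were 2 libraries labelled Wfdc15a-/- (knockout 1 and 2) and 2 libraries labelled Wfdc15a+/- (heterozygous 1 and 2, the controls, which also carry 1 altered allele). They are called knockout and heterozygous here as labelled. Nothing in the labels gives the altered part of Wfdc15a, any pooling of animals, or whether replicates are separate mice, so p-values speak only of the spread among the 4 samples, part of which may be technical. Wild type controls, which the design text also names, were not analysed here.

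These phosphatases remove phosphate from serine and threonine, and each works as a catalytic subunit bound to partners that set its targets. Calcineurin joins a catalytic A subunit to a small calcium-binding B subunit and is activated by calmodulin. Mouse germ cells make dedicated forms: a splice form of Ppp1cc is enriched in testis and sperm, and male mice without Ppp1cc, Ppp3cc or Ppp3r2 are infertile.

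The libraries held 21160061 and 11268909 reads (knockout 1 and 2) and 5774112 and 33853604 reads (heterozygous 1 and 2), and values are RPM, reads scaled to the same library total. The label of the cells was checked against marker genes: 16 of 16 round spermatid markers had 1 RPM or more in every library, and their summed level was 6763 and 6368 RPM in knockout libraries and 6110 and 6479 RPM in heterozygous libraries. Wfdc15a itself was at 82.6 and 59.5 RPM in knockout libraries and at 121 and 85.2 RPM in the heterozygous ones, so its transcript was lower without overlap but present (limma log2 difference -0.53, adjusted p = 0.647). Knockout 1 and heterozygous 2 were almost level for it. Of 20 macrophage markers 19 were tested. Of these, 16 were higher in both knockout libraries than in both heterozygous libraries and 0 were lower in both. Among all genes tested, 23.5% were higher in both and 15.0% lower in both. Only 6 of the 20 had 1 RPM or more in every library. A marker that passed the filter of 1 RPM in at least 2 libraries only through the knockout pair is bound to be higher in both. All 20 summed to 2025 and 1566 RPM in knockout libraries and to 1356 and 1715 RPM in heterozygous libraries, so this sum overlapped between the groups. Cx3cr1 and Aif1 were abundant in every library and were picked for removal after their values were seen. Without these, the other 18 summed to 444 and 149 RPM in knockout libraries and to 44.2 and 41.2 RPM in heterozygous libraries. Tyrobp, a defining marker, had 0 reads in both heterozygous libraries. Elongating spermatid markers summed to 8054 and 7836 RPM in knockout libraries and to 6978 and 12118 RPM in heterozygous libraries. Of 12 tested, 6 were lower in both knockout libraries and 0 higher in both, beside 15.0% and 23.5% of all genes tested. The sums for Sertoli cell markers were 101 and 105 RPM in knockout libraries and 46.1 and 66.8 RPM in heterozygous libraries, those for Leydig cell markers 39.7 and 19.3 RPM in knockout libraries and 9.53 and 4.93 RPM in heterozygous libraries, and those for peritubular and stromal markers 129.6 and 103 RPM in knockout libraries and 121 and 18.1 RPM in heterozygous libraries. The Sertoli marker Amh had 0 reads in every library. Spermatogonial markers summed to 99.3 and 85.2 RPM in knockout libraries and 66.0 and 59.1 RPM in heterozygous libraries, and spermatocyte markers to 1199.9 and 1384 RPM in knockout libraries and 1361 and 1075 RPM in heterozygous libraries. Lymphocyte and neutrophil markers, and blood and endothelial markers, stayed at or below 31.9 RPM in every library. Of 12 lymphocyte and neutrophil markers 4 were tested, with log2 differences from -0.83 to 6.43. Of these, 2 were higher in both knockout libraries and 1 lower in both, beside 23.5% and 15.0% of all genes tested. How far such differences in cell content enter the values below was not tested, and in bulk samples fewer cells of a type and less RNA per cell cannot be told apart.

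The deposited values behaved as counts of all reads over the whole span of a gene, introns and both strands included, which no source used here states. Among 868 pairs of listed genes in which one lies inside the other and has at least 10 reads in every library, the outer gene had at least as many reads as the inner one in all libraries in 868. Reads where genes overlap may therefore be listed for both, and the overlaps that touch a member are given with it. Levels of different genes are compared as RPM per kb of merged exons in GENCODE M21, and intronic reads are included in them.

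In mm10, as the deposited table places them, the germ cell catalytic genes are Ppp1cc on chromosome 5 from 122158278 to 122175273 and Ppp3cc on chromosome 14 from 70217898 to 70289449. The somatic PP1 and PP2A genes are Ppp1ca on chromosome 19 from 4192158 to 4195419, Ppp1cb on chromosome 5 from 32458974 to 32517433, Ppp2ca on chromosome 11 from 52098681 to 52127778, and Ppp2cb on chromosome 8 from 33599621 to 33619794. The somatic calcineurin genes are Ppp3ca on chromosome 3 from 136670124 to 136937727, Ppp3cb on chromosome 14 from 20499364 to 20546573, and Ppp3r1 on chromosome 11 from 17159263 to 17200375.

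In calcineurin B the germ cell gene far exceeded its somatic paralogue. Ppp3r2, the germ cell B subunit, was at 745 and 727 RPM in knockout libraries and at 761 and 664 RPM in heterozygous libraries. The groups overlapped, and heterozygous 2 was the lowest and heterozygous 1 the highest library. Ppp3r1, the B subunit of most other tissues, was at 16.2 and 24.3 RPM in knockout libraries and at 27.4 and 24.5 RPM in heterozygous libraries. Its groups did not overlap, but knockout 2 and heterozygous 2 were almost level. Per kb, Ppp3r2 stood 49.0-fold and 31.9-fold above Ppp3r1 in knockout 1 and 2, and 29.7-fold and 28.9-fold in heterozygous 1 and 2. Ppp3r2 was the member with the highest level per kb in all 4 libraries, at 219.5 to 251 RPM per kb, and ranked between 159 and 239 among the 22504 genes with a length.

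Ppp3r2 lies on chromosome 4 from 49678747 to 49682024 (mm10, minus strand) as a gene of 2 exons, inside an intron of Grin3a, a glutamate receptor subunit gene of the same strand. Grin3a was listed at 755 and 738 RPM in knockout libraries and at 767 and 671 RPM in heterozygous libraries. Its value thus exceeded that of Ppp3r2 by 9.83 and 11.6 RPM in knockout libraries and by 6.41 and 6.47 RPM in the heterozygous ones, so nearly all reads listed for Grin3a match the number listed for Ppp3r2. Of the 2977 windows of 50 bases in the Ppp3r2 transcript, 0 occur in an annotated transcript of another gene. Ppp3r1 shares 18269 bases of its span with Wdr92 on the same strand, which was at 28.7 and 45.3 RPM in knockout libraries and at 60.8 and 31.2 RPM in heterozygous libraries, so part of the reads listed for Ppp3r1 may be those of Wdr92. Of the 3177 windows of Ppp3r1 transcripts, 413 also occur in transcripts of other genes, first Wdr92.

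The promoter windows of this pair are shown because the genes differ so widely in level. They run from 250 bases before to 50 bases after the gene start (RefSeq, GRCm38.p6), with GC boxes (GGGCGG) and cores of the cAMP response element (TGACG), searched on both strands, in capitals.
Ppp3r2 (chr4:49681934-49682233, minus strand): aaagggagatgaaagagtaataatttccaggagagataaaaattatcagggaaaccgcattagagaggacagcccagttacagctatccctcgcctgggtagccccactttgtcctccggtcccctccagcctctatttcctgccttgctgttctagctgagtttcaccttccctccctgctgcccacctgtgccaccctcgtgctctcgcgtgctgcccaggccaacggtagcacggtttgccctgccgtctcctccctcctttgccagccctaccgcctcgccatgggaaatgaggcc
Ppp3r1 (chr11:17159048-17159347, plus strand): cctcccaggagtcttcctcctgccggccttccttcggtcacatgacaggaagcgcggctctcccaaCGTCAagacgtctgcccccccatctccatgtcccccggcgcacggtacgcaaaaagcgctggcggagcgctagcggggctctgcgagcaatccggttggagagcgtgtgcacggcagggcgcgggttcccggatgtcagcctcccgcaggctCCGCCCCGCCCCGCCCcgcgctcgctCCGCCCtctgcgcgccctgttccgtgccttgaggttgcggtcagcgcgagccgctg
The window of Ppp3r2 holds 0 GC boxes, 0 cores and 11 CG dinucleotides, and that of Ppp3r1 holds 4 GC boxes, 1 core and 36 CG dinucleotides. Of 32851 promoter windows of this length, 35.7% hold a GC box and 20.8% the core, and the median number of CG dinucleotides is 7. A match is a match of letters only.

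Calcineurin A showed a mixture of paralogues. Ppp3cc, the germ cell catalytic subunit, was at 289.6 and 265 RPM in knockout libraries and at 303 and 299.7 RPM in heterozygous libraries. Each knockout library lay below each heterozygous one, by a margin smaller than the gap between knockout 1 and knockout 2. Ppp3ca, the catalytic subunit best known from brain and muscle, was at 95.3 and 96.5 RPM in knockout libraries and at 135 and 90.1 RPM in heterozygous libraries. Ppp3cb, the beta catalytic subunit, was at 7.47 and 14.7 RPM in knockout libraries and at 24.9 and 12.1 RPM in heterozygous libraries. Ppp3ca and Ppp3cb overlapped between the groups, and heterozygous 1 was the highest library for both.

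Per kb, Ppp3cc made up 90.3% and 88.7% of the summed calcineurin A level in knockout libraries and 86.1% and 90.6% in heterozygous libraries. It stood 10.2-fold and 9.20-fold above Ppp3ca in knockout 1 and 2, and 7.52-fold and 11.1-fold in heterozygous 1 and 2. With coding length in place of merged exons the fold over Ppp3ca was 2.25 to 3.32 over the 4 libraries. The level of Ppp3r2 per kb was 2.54 and 2.70 times that of Ppp3cc in knockout libraries and 2.48 and 2.19 times in heterozygous libraries, and 6.46 to 7.98 times with coding length. Ppp3cb overlaps 1810062O18Rik by 495 bases on the other strand, and that gene was at 13.5 and 17.8 RPM in knockout libraries and at 18.5 and 12.0 RPM in heterozygous libraries.

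Among the PP1 genes, Ppp1cc, which encodes the gamma subunit in both its widely made and its testis-enriched form, was at 434 and 419 RPM in knockout libraries and at 507 and 572 RPM in heterozygous libraries. The groups did not overlap, and heterozygous 2 was the highest. A value summed over the gene cannot separate the splice forms. Of the 50-base windows of the Ppp1cc transcripts, 40.0% also occur in transcripts of other annotated genes, first among them Ppp1ccb, so the level of Ppp1cc is uncertain to the extent that reads of such copies were placed on it or its own were lost.

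Ppp1ca, the alpha subunit, was at 12.0 and 10.9 RPM in knockout libraries and at 7.62 and 2.097 RPM in heterozygous libraries. The groups did not overlap, and heterozygous 2 was the lowest library. The heterozygous values rest on 44 and 71 reads, with exact Poisson 95% intervals of 5.54 to 10.2 RPM and 1.64 to 2.65 RPM that cover counting error only. These intervals take each read as independent, so they are too narrow if each mate of a pair was counted. Ppp1cb, the beta subunit found in myosin phosphatase, was at 14.6 and 24.1 RPM in knockout libraries and at 30.1 and 10.6 RPM in heterozygous libraries, with both extremes in the heterozygous group. Windows shared with transcripts of other genes made up 10.8% for Ppp1ca and 16.4% for Ppp1cb. Ppp1ca overlaps Rad9 by 222 bases and Ppp1cb overlaps Gm15614 by 10250 bases, both on the other strand. Rad9 was at 8.51 and 5.95 RPM in knockout libraries and at 7.10 and 4.99 RPM in heterozygous libraries, and Gm15614 at 7.47 and 8.96 RPM in knockout libraries and at 11.6 and 3.60 RPM in the heterozygous ones.

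Per kb, Ppp1cc made up 95.4% and 94.9% of the summed PP1 level in knockout libraries and 96.2% and 98.9% in heterozygous libraries. Its fold over Ppp1cb was 94.6 and 55.4 in knockout 1 and 2 and 53.6 and 172 in heterozygous 1 and 2, and with coding length it was 16.3 to 52.2 over the 4 libraries. Its fold over Ppp1ca was 26.6 and 28.3 in knockout 1 and 2 and 48.9 and 201 in heterozygous 1 and 2. The promoter windows of Ppp1cc and Ppp1cb are shown for the same reason as those of the calcineurin B pair, with the same capitals.
Ppp1cc (chr5:122158025-122158324, plus strand): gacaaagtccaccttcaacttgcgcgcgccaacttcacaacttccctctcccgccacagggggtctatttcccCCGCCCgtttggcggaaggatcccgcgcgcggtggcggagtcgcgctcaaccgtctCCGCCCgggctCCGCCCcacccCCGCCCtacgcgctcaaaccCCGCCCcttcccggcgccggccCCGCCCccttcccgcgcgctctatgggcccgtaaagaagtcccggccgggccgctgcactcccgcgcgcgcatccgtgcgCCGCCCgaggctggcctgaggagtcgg
Ppp1cb (chr5:32458720-32459019, plus strand): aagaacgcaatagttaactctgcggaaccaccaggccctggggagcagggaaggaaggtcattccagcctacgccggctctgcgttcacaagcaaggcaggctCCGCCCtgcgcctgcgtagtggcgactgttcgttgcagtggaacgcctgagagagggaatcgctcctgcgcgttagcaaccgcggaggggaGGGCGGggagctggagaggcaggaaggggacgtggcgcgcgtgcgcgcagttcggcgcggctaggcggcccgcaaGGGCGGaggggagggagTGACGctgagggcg
Both are rich in CG dinucleotides, with 42 in Ppp1cc and 31 in Ppp1cb. Ppp1cc holds 7 GC boxes and 0 cores and Ppp1cb 3 GC boxes and 1 core, so the germ cell genes Ppp1cc and Ppp3r2 do not share these motifs in the windows.

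The PP2A pair has no member counted as a germ cell gene, yet its levels were also uneven. Ppp2cb, the beta catalytic subunit, was at 136 and 127 RPM in knockout libraries and at 188 and 138 RPM in heterozygous libraries. The groups did not overlap, although knockout 1 and heterozygous 2 lay close together. Ppp2ca, the alpha subunit, was at 7.75 and 8.52 RPM in knockout libraries and at 25.8 and 8.18 RPM in heterozygous libraries. Its groups overlapped, and heterozygous 1 stood alone. Of its 50-base windows, 41.0% also occur in transcripts of other genes, first 9430098F02Rik. That gene is absent from the deposited table and overlaps 2985 of the 7490 exonic bases of Ppp2ca on the other strand. Windows in that overlap are the same bases of the genome. Reads of 9430098F02Rik may thus be included in the value of Ppp2ca, so the level of Ppp2ca and the fold over it are uncertain.

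Per kb, Ppp2cb made up 98.9% and 98.7% of the PP2A catalytic level in knockout libraries and 97.4% and 98.8% in heterozygous libraries. Its fold over Ppp2ca was 89.4 and 76.1 in knockout 1 and 2 and 37.1 and 85.8 in heterozygous 1 and 2. With coding length, which is the same for both genes, the fold was 7.27 to 17.5 over the 4 libraries. Ppp2cb overlaps Ubxn8 by 209 bases on the other strand, and Ubxn8 was at 47.5 and 50.7 RPM in knockout libraries and at 27.7 and 39.7 RPM in heterozygous libraries. Ppp2ca is the only one of the 6 members with a promoter window in the RefSeq table that holds the full cAMP response element TGACGTCA, which reads the same on both strands, contains the core on each and is found in 1.79% of all windows. Its window is shown for that element.
Ppp2ca (chr11:52098574-52098873, plus strand): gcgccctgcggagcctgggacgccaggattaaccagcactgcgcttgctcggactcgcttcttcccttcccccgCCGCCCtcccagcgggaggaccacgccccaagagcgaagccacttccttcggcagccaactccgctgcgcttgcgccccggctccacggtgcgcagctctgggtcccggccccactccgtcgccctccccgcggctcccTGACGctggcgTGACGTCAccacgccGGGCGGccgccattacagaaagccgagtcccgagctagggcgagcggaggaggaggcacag
The members without an entry in that table were Ppp1ca, Ppp2cb, Ppp3ca and Ppp3cc.

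**Figure D1:**
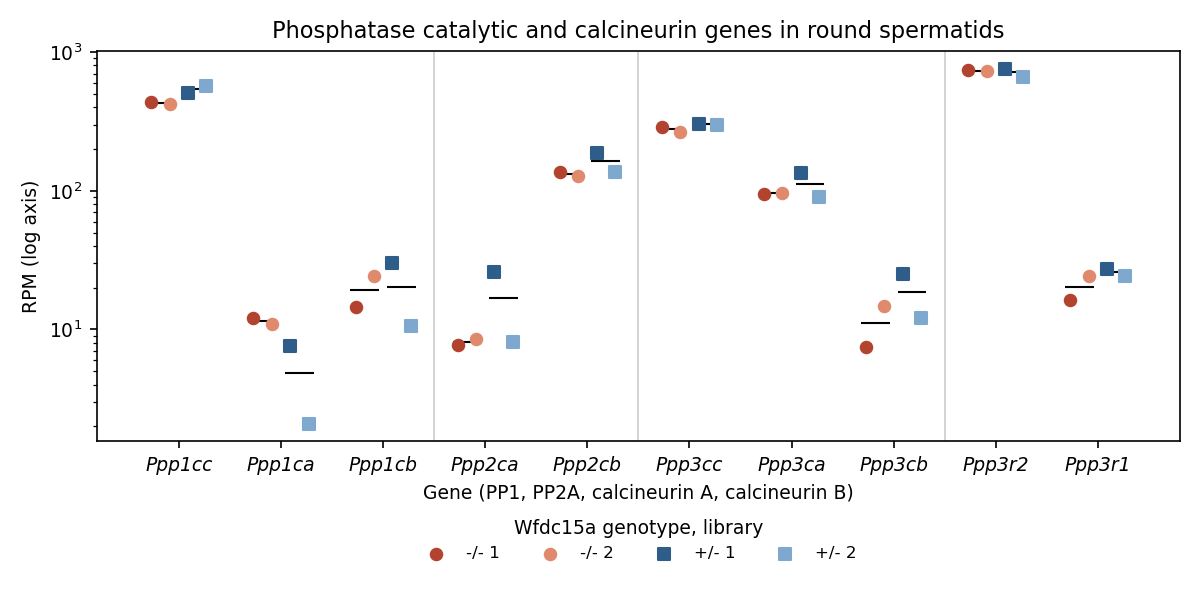
Level of each member (RPM, log axis) in the 2 libraries labelled Wfdc15a-/- (circles, left) and the 2 Wfdc15a+/- libraries (squares, right), with black lines at the group means. Ppp3r2, Ppp1cc and Ppp3cc lie between 265 and 761 RPM in every library, and Ppp1ca, Ppp1cb, Ppp2ca, Ppp3cb and Ppp3r1 between 2.097 and 30.1 RPM.

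Ordered by mean level per kb, the members were Ppp3r2, Ppp1cc, Ppp2cb, Ppp3cc, Ppp3ca, Ppp3r1, Ppp1ca, Ppp1cb, Ppp3cb and Ppp2ca, with means of 239, 141, 100.1, 97.0, 10.4, 7.15, 3.24, 1.82, 1.68 and 1.68 RPM per kb. The ranges over the 4 libraries overlapped between Ppp1cc and Ppp2cb, between Ppp2cb and Ppp3cc, and between each neighbouring pair from Ppp1ca to Ppp2ca. Ranges did not overlap between Ppp3r2 and Ppp1cc, between Ppp3cc and Ppp3ca, between Ppp3ca and Ppp3r1, or between Ppp3r1 and Ppp1ca. Ppp2cb, a somatic paralogue by the list, had a level per kb that overlapped those of Ppp1cc and Ppp3cc. This rests on the merged exon length: Ppp1cc stood 1.16-fold to 1.78-fold above Ppp2cb over the 4 libraries by that length, 2.48-fold to 3.81-fold by coding length and 2.70-fold to 4.16-fold with no division by length.

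**Figure D2:**
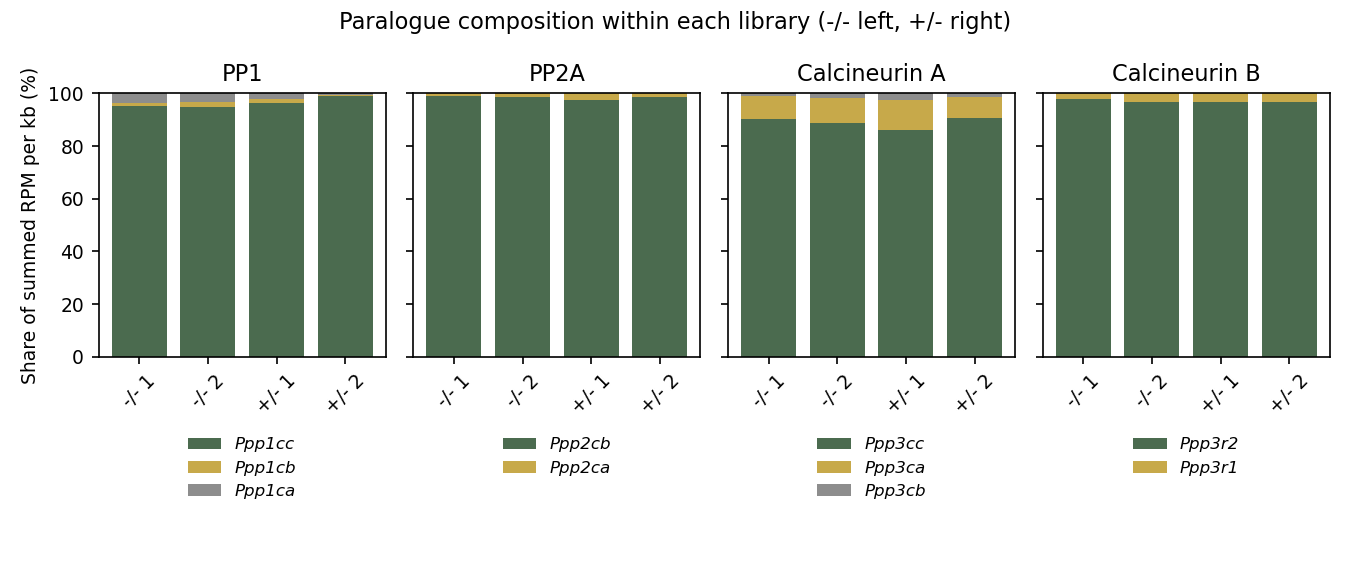
Share of each paralogue in the summed level per kb of its family (percent) in each library, Wfdc15a-/- left and Wfdc15a+/- right. Ppp1cc, Ppp2cb and Ppp3r2 each hold 94.9% or more in every library, and Ppp3cc holds 86.1% to 90.6%.

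The composition of the families was then compared between the genotypes. The share of Ppp1cc in PP1 averaged 95.2% ± 0.335 in knockout libraries and 97.6% ± 1.90 in heterozygous libraries (SD, n = 2 each), a difference of -2.42 percentage points. The share of Ppp3cc in calcineurin A averaged 89.5% ± 1.15 in knockout libraries and 88.4% ± 3.16 in the heterozygous ones. That of Ppp3r2 in calcineurin B averaged 97.5% ± 0.737 in knockout libraries and 96.7% ± 0.0564 in heterozygous libraries, and that of Ppp2cb in PP2A 98.8% ± 0.134 in knockout libraries and 98.1% ± 1.04 in heterozygous libraries. Exact two-sided permutation tests over the libraries gave p = 0.333 for Ppp1cc and Ppp3r2, 0.667 for Ppp2cb and 1 for Ppp3cc, where 0.333 is the smallest p that 2 against 2 libraries allow.

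For single genes, the question was which of these phosphatases differ between spermatids labelled Wfdc15a-/- and Wfdc15a+/-. Of the 10 members 0 passed limma's test at an adjusted p of 0.05, as did 0% of the 15888 genes tested. At an unadjusted p under 0.05 there was 1 member, Ppp1ca, which was higher in knockout libraries, beside 6.21% of all genes tested that were higher at that level and 1.87% that were lower. All 10 members passed the filter of 1 RPM in at least 2 libraries. Over all genes, limma gave 1283 at an unadjusted p under 0.05, and its voom variant, fitted to reads recovered from the RPM steps, called 0 and had 1961 at an unadjusted p under 0.05.

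Ppp1ca averaged 11.5 ± 0.770 RPM in knockout libraries and 4.86 ± 3.91 RPM in heterozygous libraries (SD, n = 2 each), a log2 difference of 1.52 (SE 0.59, 95% confidence interval 0.21 to 2.83, limma adjusted p = 0.588). This value turned on the heterozygous libraries: it was 2.45 without heterozygous 1 and 0.59 without heterozygous 2. The macrophage sum without Cx3cr1 and Aif1 was higher in the same libraries, while the sum of all listed macrophage markers overlapped between the groups. The part of macrophages in the level of Ppp1ca was not tested.

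Ppp1cc averaged 426 ± 10.1 RPM in knockout libraries and 539.6 ± 46.5 RPM in heterozygous libraries, a log2 difference of -0.34 (SE 0.20, interval -0.77 to 0.09, limma adjusted p = 0.674). The interval runs from 0.587 to 1.07 times the heterozygous level, so a difference of that size cannot be told from none here. Ppp1cc and the sum of the elongating spermatid markers were both highest in heterozygous 2. In heterozygous 1 the marker sum was the lowest of all libraries (6978 RPM), while Ppp1cc (507 RPM) was above both knockout libraries. Marker by marker, 6 of 12 were, like Ppp1cc, lower in both knockout libraries than in both heterozygous libraries, and 0 were higher in both. Among all genes tested these shares were 15.0% and 23.5%. The part of elongating spermatids in the level of Ppp1cc was not tested. Ppp3cc and Ppp3r2 had log2 differences of -0.12 and 0.05, with intervals of -0.58 to 0.33 and -0.36 to 0.46. For Ppp3r2 the interval spans 0.777 to 1.38 times the heterozygous level, the narrowest of the members.

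Ppp2cb had a log2 difference of -0.29 (interval -0.83 to 0.25), and Ppp3ca, Ppp3r1 and Ppp3cb had -0.20, -0.38 and -0.73, all with intervals that include 0. With 1 library left out, the difference ran from -0.51 to -0.067 for Ppp2cb, from -0.68 to -0.090 for Ppp3r1 and from -1.25 to -0.20 for Ppp3cb. Ppp1cb had 0.07, with an interval from -1.01 to 1.15. Ppp2ca had -0.84 (interval -1.99 to 0.31, limma adjusted p = 0.698). It was -1.67 without heterozygous 2 and -0.01 without heterozygous 1, the library with the fewest reads. Heterozygous 1 was the highest library for 6 of the 7 somatic paralogues, all but Ppp1ca, and for 2 of the 3 germ cell members. How often it was the highest over all genes tested was not counted.

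**Figure D3:**
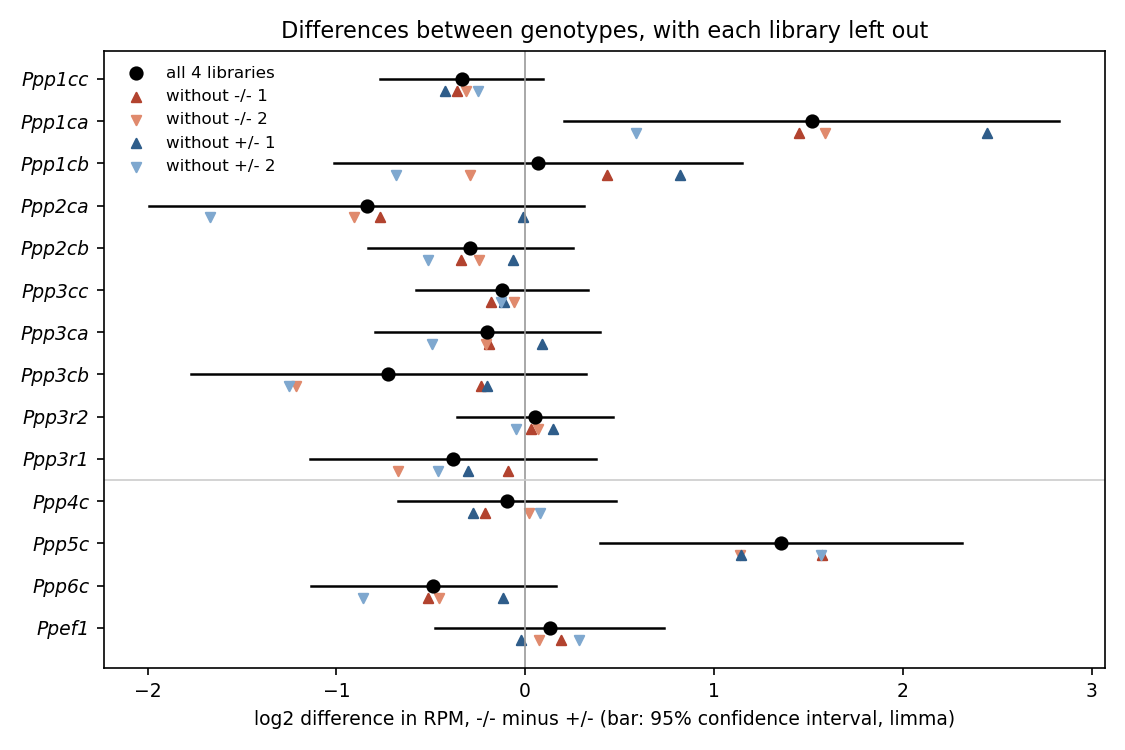
Log2 difference in RPM, Wfdc15a-/- minus Wfdc15a+/-, of the members and of 4 other PPP catalytic genes (dots) with limma 95% confidence intervals (bars). Triangles give the difference with 1 library left out: for Ppp1ca it runs from 0.59 to 2.45 and for Ppp2ca from -1.67 to -0.01.

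Of the 10 members, 4 lay lower in both knockout libraries than in both heterozygous libraries, namely Ppp1cc, Ppp3cc, Ppp2cb and Ppp3r1, as did 15.0% of all genes tested. Ppp1ca alone lay above both, as did 23.5% of all genes tested. The difference was negative for 7 members as deposited, for 8 with median-ratio scaling and for 8 with quantile normalization, beside 43.9%, 49.3% and 50.5% of all genes tested. Ppp2ca also lay below both heterozygous libraries under both scalings, and Ppp2cb did not under quantile normalization. That makes 5 members below both with median-ratio scaling, beside 19.0% of all genes tested, and 4 with quantile normalization, beside 19.3%. The median of the members was -0.25, -0.31 and -0.22 in this order, beside 0.07, 0.01 and -0.01 for all genes tested. With 10 genes and 2 libraries a group, these counts describe the libraries and are no test of the family.

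The other catalytic genes of the same phosphatase family were Ppp4c, Ppp5c, Ppp6c, Ppef1 and Ppef2, of which 4 were tested and 0 passed. Ppp5c, which encodes PP5, a phosphatase that binds the chaperone Hsp90, was at 11.1 and 14.9 RPM in knockout libraries and at 4.33 and 5.82 RPM in heterozygous libraries (log2 difference 1.36, SE 0.43, limma adjusted p = 0.538). Its groups did not overlap, and the difference stayed between 1.14 and 1.57 with any 1 library left out. Ppp6c, the catalytic subunit of PP6, was at 73.1 and 70.1 RPM in knockout libraries and at 129.7 and 77.6 RPM in heterozygous libraries, without overlap and with heterozygous 1 apart. Ppp4c, the catalytic subunit of PP4, was at 78.4 to 103 RPM and Ppef1, an EF-hand phosphatase gene, at 47.6 to 60.3 RPM over the 4 libraries. Ppef2, a related gene known from photoreceptors, was at 0.520 to 1.06 RPM and was not tested.

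Of 40 PP1 partner genes, 31 were tested, and 0 passed in either direction. At an unadjusted p under 0.05, 1 was higher and 1 lower, beside 6.21% and 1.87% of all genes tested. In both knockout libraries, 6 lay above both heterozygous libraries and 8 below both, beside 23.5% and 15.0% of all genes tested, and the median log2 difference was -0.05 beside 0.07 for all genes tested. The 6 include Ppp1r3e, at 1.09 and 1.15 RPM in knockout libraries and at 0 and 0.118 RPM in heterozygous libraries. It passed the filter only through the knockout pair and was bound to lie above both heterozygous libraries. The most abundant by RPM were Ppp1r32, at 848 and 793 RPM in knockout libraries and 625 and 805 RPM in heterozygous libraries, Ppp1r11, and Ppp1r36. Ppp1r11, which encodes inhibitor 3, was at 226 and 205 RPM in knockout libraries and at 245 and 271 RPM in heterozygous libraries, without overlap and in the same direction as Ppp1cc (limma adjusted p = 0.784). Ppp1r36 was at 207 to 232 RPM, Ppp1r2, which encodes inhibitor 2, at 165 to 188 RPM, and Ppp1r7, which encodes the regulator sds22 known from sperm, at 97.3 to 117 RPM over the 4 libraries, all with overlapping groups. Ppp1r7 overlaps Pask by 629 bases on the other strand, and Pask was at 173 and 191 RPM in knockout libraries and at 190.7 and 189 RPM in heterozygous libraries.

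The PP1 partners with the smallest p had low or middling levels. Ppp1r13b, which encodes the p53-binding protein ASPP1, was at 17.5 and 16.7 RPM in knockout libraries and at 24.4 and 34.2 RPM in heterozygous libraries (limma unadjusted p = 0.0454, adjusted p = 0.607). Ppp1r9a, which encodes neurabin 1, was at 6.24 and 9.14 RPM in knockout libraries and at 1.73 and 5.02 RPM in heterozygous libraries. Its log2 difference was 1.36, and became 2.12 without heterozygous 2 and 0.59 without heterozygous 1. Ppp1r37 was at 5.67 and 4.17 RPM in knockout libraries and at 10.7 and 8.68 RPM in heterozygous libraries.

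Of 27 PP2A partner genes, 26 matched the table, 25 were tested and 0 passed, with 0 at an unadjusted p under 0.05. In both knockout libraries, 2 lay above both heterozygous libraries and 5 below both, beside 23.5% and 15.0% of all genes tested. At that p, 6.21% of all genes tested were higher and 1.87% lower. The median log2 difference of the list was -0.03, beside 0.07 for all genes tested. Ppp2r1b, the beta form of the scaffold subunit that holds the PP2A enzyme together, was at 262 and 243 RPM in knockout libraries and at 239 and 278 RPM in heterozygous libraries. Ppp2r1a, the alpha scaffold, was added for comparison once its values were known. It was at 15.6 and 16.1 RPM in knockout libraries and at 16.6 and 11.8 RPM in heterozygous libraries. Per kb, the beta scaffold stood 8.87-fold and 7.99-fold above the alpha scaffold in knockout 1 and 2 and 7.60-fold and 12.5-fold in heterozygous 1 and 2, so scaffold and catalytic subunit both had the beta gene in excess. Ppp2r1b overlaps Sik2 by 1429 bases on the other strand, and Sik2 was at 53.2 and 55.2 RPM in knockout libraries and at 67.7 and 55.3 RPM in the heterozygous ones.

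Tiprl, a regulator that binds PP2A-type catalytic subunits, was at 174 to 236 RPM and Ppp2r5e, a regulatory B subunit, at 136 to 237 RPM over the 4 libraries. Strn3 and Strn4, striatins that join PP2A to kinases, and Ptpa, the PP2A activator listed as Ppp2r4, had the smallest p. Strn3 was at 12.6 and 20.1 RPM in knockout libraries and at 57.7 and 17.5 RPM in heterozygous libraries. Its log2 difference of -0.997 became -1.86 without heterozygous 2 and -0.14 without heterozygous 1. Strn4 was at 49.86 and 49.96 RPM in knockout libraries and at 68.1 and 72.9 RPM in heterozygous libraries. Ptpa was at 73.4 and 67.2 RPM in knockout libraries and at 62.2 and 33.999 RPM in heterozygous libraries. Strn4 and Ptpa did not overlap between the groups, and neither passed (limma adjusted p = 0.641 and 0.642).

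Of 19 calcineurin partner genes, 16 were tested and 0 passed, with 1 higher at an unadjusted p under 0.05, 4 above both heterozygous libraries, 0 below both and a median log2 difference of 0.14. Over all genes tested, 6.21% were higher at that p, 23.5% lay above both and 15.0% below both. Calm2, a calmodulin gene, was at 147 and 163 RPM in knockout libraries and at 117 and 47.5 RPM in heterozygous libraries (log2 difference 1.05, limma adjusted p = 0.565). Calm2 passed without a filter on low values (limma adjusted p = 0.0261), a setting in which 180 of 25965 genes passed. The log2 difference of Calm2 was 1.70 without heterozygous 1 and 0.40 without heterozygous 2. Its groups did not overlap, and heterozygous 2 was the lowest library. Of the 50-base windows of the Calm2 transcripts, 9.72% occur in transcripts of other genes, so its reads may be shared with copies.

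Spata33, which anchors calcineurin to sperm mitochondria in mice and is listed by an older symbol, was at 415 and 310 RPM in knockout libraries and at 394 and 474 RPM in heterozygous libraries. Its groups overlapped, with knockout 2 the lowest. It lies inside the span of Gm20388 on the same strand. Ppia, which encodes cyclophilin A, the partner through which cyclosporin blocks calcineurin, was at 606 and 507 RPM in knockout libraries and at 489 and 437 RPM in heterozygous libraries. Ppia has many processed copies, and 17.3% of its 50-base windows occur elsewhere in the transcripts. The calcineurin regulators Rcan1, Rcan2 and Rcan3 were low. Rcan1 was at 6.33 and 5.86 RPM in knockout libraries and at 2.77 and 3.43 RPM in heterozygous libraries, without overlap (log2 difference 0.98, SE 0.52, limma adjusted p = 0.640), and Rcan2 and Rcan3 were at 0.532 to 2.77 RPM.

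**Figure D4:**
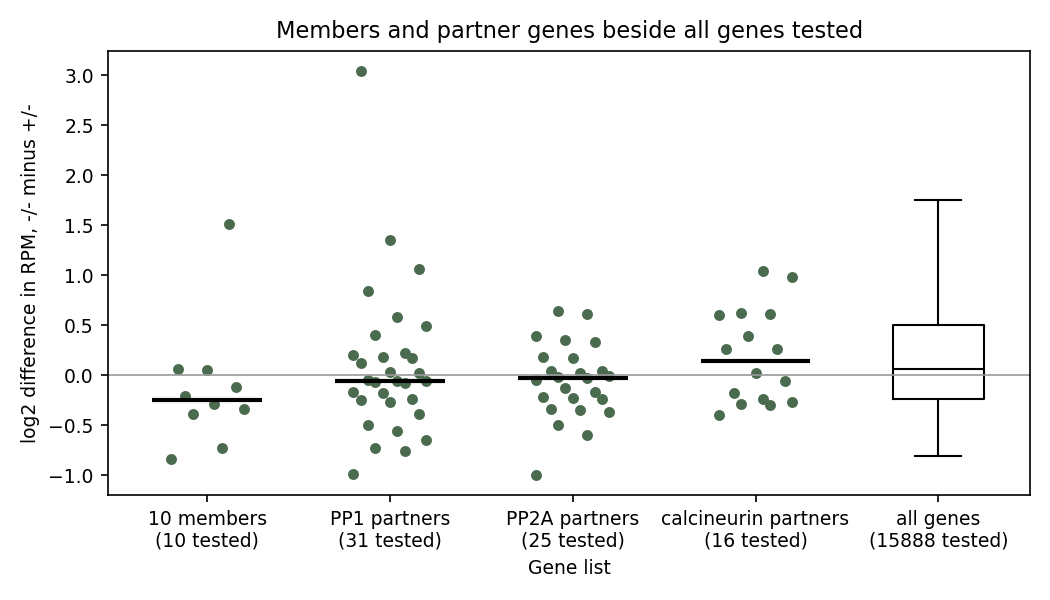
Log2 difference in RPM, Wfdc15a-/- minus Wfdc15a+/-, of each tested gene of the 4 lists (dots, with black lines at the medians) and of all genes tested (box from the 25th to the 75th percentile, whiskers at the 5th and 95th). The list medians lie at -0.25, -0.05, -0.03 and 0.14, beside 0.07 for all genes. The PP1 partner at 3.04, Ppp1r3e, had 0 reads in heterozygous 1 and passed the filter only through the knockout pair.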

How the data were processed

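The authors deposited 1 table of log2 RPM values, reads scaled to a common library total with no adjustment for gene length. The submitters' processing notes name the mm10 build and the tools HISAT2 2.1.0, FastQC 0.11.8 and Trim Galore 0.6.6. For counting, tool and annotation: not given in the sources used here. Within a library the values step by whole reads when the lowest is taken as 0.9 of a read, and 99.7% to 100.0% of the other values came out whole within 0.01 of a read. In all 4 libraries more genes had 2 reads than 1, as when each mate is counted.

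The test, for genes reaching 1 RPM in at least 2 libraries, was that of limma 3.58.1 (R 4.3.3), run on the deposited log2 values (empirical Bayes with a mean-variance trend, two-sided, Benjamini-Hochberg adjustment over 15888 genes). Shares and permutation tests used SciPy 1.17.1 under Python 3.11.15. The code was tested on simulated data. Folds between genes are ratios within a library.

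Members and lists were chosen with earlier results of these data known. Named are all members, the other PPP genes, from each partner list the 3 with the highest RPM and the 3 with the smallest p, and 7 genes chosen by name. For 1 gene that this rule names, values are not reported here. Of 232 list symbols, 224 matched as written, 5 by an older symbol and 3 did not match. No gene of like pattern is named, since there are only 4 libraries. Alternatives were 2 scalings, log2(RPM + 1), a common lowest value, no filter, a filter of 5 RPM, no variance trend, voom, each library left out, a replicate block and 3 other treatments of length. The removal of the reads of Gm15614 from Ppp1cb was chosen after seeing the data.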

Additional observations from a re-analysis of the deposited data

How the results depend on the processing

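The number of genes passing was 0, and 0 after median-ratio scaling, quantile normalization, a common lowest value, a filter of 5 RPM, no variance trend and voom. It was 1 with log2(RPM + 1), 180 without a filter and 66 with the replicate block, and ran from 0 to 640 with 1 library left out. The spread then comes from the group that keeps 2 libraries, and the lone library is assumed to vary like it. It was 559 without heterozygous 1, 640 without heterozygous 2, 0 without knockout 1 and 1 without knockout 2, and the cause was not tested. Members passing ran from 0 to 1 with 1 library left out and were 0 otherwise, the replicate block included, and partner genes passing were 1 without a filter and ran from 0 to 2 with 1 library left out. Samples with the same number did not deviate together (r = -0.076), so the replicate numbers were not taken as pairs.

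The share of Ppp1cc averaged 96.4% over the 4 libraries, 94.2% with coding length, 94.3% with no division by length and 96.9% without the reads of Gm15614. That of Ppp3cc averaged 88.9%, 71.1% with coding length, 71.1% with no division and 82.0% with the longest transcript, and that of Ppp2cb 98.5%, and 92.7% with coding length and with no division. Except for the removal of Gm15614, these settings differ only in the length assumed. That removal takes all reads of Gm15614 from Ppp1cb, which it overlaps only in part. It could therefore only raise the share of Ppp1cc.

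Of 451 values for 35 named genes, 426 kept direction and side of the threshold, 6 newly passed and 19 changed sign, none of these past the threshold. Many of the kept directions were fixed in advance. No filter, a filter of 5 RPM, no variance trend and the replicate block do not alter a gene's log2 difference. A common lowest value left it the same for the named genes. Signs could change only with the scalings, log2(RPM + 1), voom or a library left out. Ppp3r2 was -0.011 after median-ratio scaling, Ppp1cb -0.018 after quantile normalization and Rcan3 0.50 with voom. With 1 library left out the log2 differences ran from -0.049 to 0.15 for Ppp3r2, -0.68 to 0.82 for Ppp1cb, -0.49 to 0.090 for Ppp3ca, -0.27 to 0.079 for Ppp4c, -0.022 to 0.28 for Ppef1, -0.13 to 0.023 for Ppp1r36, -0.14 to 0.078 for Ppp2r1b, -0.53 to 0.28 for Ppp2r5e, -0.17 to 0.019 for Ppp1r2, -0.19 to 0.083 for Ppp1r7, -0.37 to 1.59 for Rcan2 and -0.61 to 0.52 for Rcan3. Depth differed 5.86-fold between libraries, and Ppp1ca had 44 and 71 reads in the heterozygous ones.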
